A study of Homo sapiens with 2 samples.

Results

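The 10 mRNAs described here encode cyclin-dependent kinases (CDKs). They were chosen by gene name, not by a cut on their values, but with earlier results of these data known. They are CDK1, CDK2, CDK4 and CDK6, which drive the cell cycle, and CDK5, CDK7, CDK8, CDK9, CDK12 and CDK13, which act elsewhere, 10 of 16770 named genes in the series. All 10 were found, each as a single row. They were measured by RNA immunoprecipitation sequencing (RIP-seq), which sequences the RNA that comes down with a protein captured by an antibody, here LRPPRC, a leucine-rich pentatricopeptide repeat protein that binds RNA in mitochondria and cytoplasm. There is 1 group, wild-type A549 cells, a human lung adenocarcinoma line, with no treatment or altered allele named, and lysates were incubated with 2 μg of anti-LRPPRC antibody. It has 2 libraries, replicate 1 and replicate 2. The series description calls them technical replicates whereas the paper calls them biological, so the spread between them may be technical only.

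A CDK is active only when bound to a cyclin or another activating partner. CDK4 and CDK6 pair with D-type cyclins and phosphorylate the retinoblastoma protein in G1, CDK2 pairs with cyclins E and A at the start of and during S phase, and CDK1 pairs with cyclins A and B and drives mitosis. The others mostly serve RNA polymerase II. CDK7 is the kinase of the general transcription factor TFIIH and also activates the cell cycle CDKs, CDK8 belongs to the Mediator kinase module, CDK9 is the kinase of P-TEFb, which releases paused polymerase, and CDK12 and CDK13 pair with cyclin K in elongation and RNA processing. CDK5 is neither a cell cycle nor a transcriptional kinase, and is known for its role in postmitotic neurons, where it is activated by the p35 and p39 proteins. The study is about how lung cancer cells respond to CDK4/6 inhibitors, and the RIP experiment asks which mRNAs come down with LRPPRC. CDK6, CDK4, CDK2 and CDK1 were also quantified there by PCR after RIP.

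Primers of those 4 PCR assays are shown because they fix which stretch of each mRNA the assay reads, whereas RIP-seq covers the whole transcript. Each is written 5′ to 3′, with bases in the coding sequence in capitals and bases in the 5′ UTR in lower case, and the forward primer is the one that matches the mRNA strand. Both CDK1 primers carry the same reverse label in the study's list, so theirs were told apart by this match.
CDK6 forward: GACCAGCAGCGGACAAAT
CDK6 reverse: TGGAGCAAGACTTCGGGT
CDK4 forward: CCCAATGGAGGAGGAGGT
CDK4 reverse: CAGTTCGGGATGTGGCAC
CDK2 forward: gacaagagcgagaggtatactgc
CDK2 reverse: AAGTTCTCCATgaagcgcc
CDK1 forward: gacgcggttgttgtagctg
CDK1 reverse: CATGGCTACCACTTGACCTGTAG

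All 8 primers matched the canonical transcript of their own gene exactly once and no transcript of any other gene in the lists used here. The CDK6 product of 120 bases joins exon 4 to exon 5 in the coding sequence (chr7:92671495-92725704, GRCh38, minus strand), and 10622 bases of the mRNA lie 3′ of it. The CDK4 product, of 133 bases, joins exon 2 to exon 3 in the coding sequence (chr12:57751311-57751600, minus strand). The CDK2 product, of 168 bases, lies within exon 1 and ends just inside the coding sequence (chr12:55966852-55967019, plus strand). The CDK1 product, of 171 bases, runs from exon 1, in the 5′ UTR, to exon 3 (chr10:60778521-60784763, plus strand).

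CDK6 and CDK2 had the highest levels of the 10 CDK mRNAs in LRPPRC RIP, and CDK5 had the lowest. Levels are in FPKM, fragments scaled by transcript length and by the mapped fragments of the library, as the authors computed them. The 10 means spanned 0.933 to 55.5 FPKM, with a median of 20.6, against a median of 6.81 over the 10441 named genes that reached FPKM 1 in each library. FPKM is a level in the precipitate. Neither an input nor an IgG library was analysed here, so how much of it reflects the amount of each mRNA in the cell cannot be told apart from its recovery with LRPPRC. All values come from the same condition, and genes are not replicates of each other, so no p-value was computed.

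**Figure D1:**
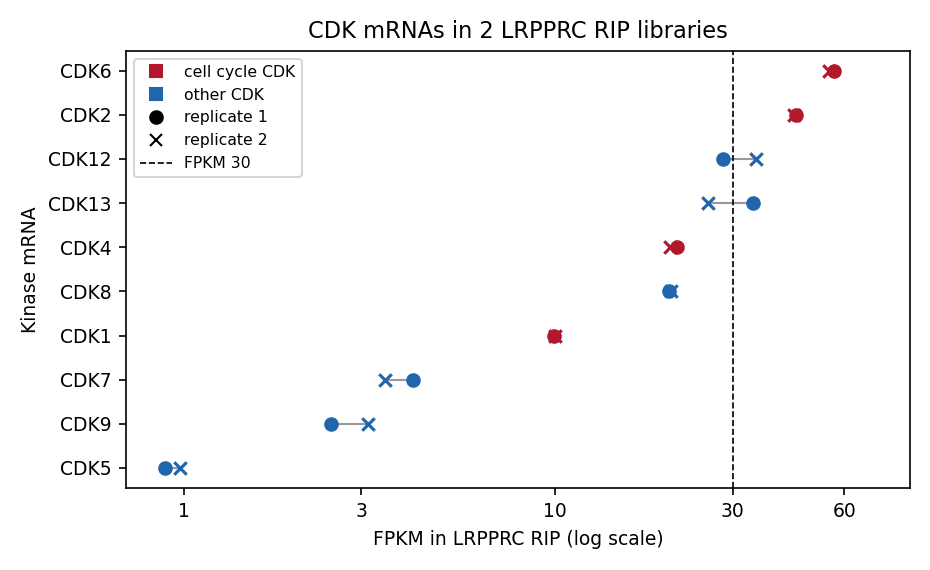
FPKM of the 10 CDK mRNAs in LRPPRC RIP on a log scale (x axis), ordered by mean (y axis), with cell cycle CDKs in red, the other CDKs in blue, circles for replicate 1, crosses for replicate 2 and a dashed line at FPKM 30. CDK6 and CDK2 lie to the right of the line in both libraries, CDK12 and CDK13 straddle it, and CDK7, CDK9 and CDK5 lie below 5 FPKM.

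Among the G1 kinases, CDK6 had 56.3 FPKM in replicate 1 and 54.7 in replicate 2. CDK4 had 21.3 and 20.3 FPKM in the same order, which is kept for every pair of values that follows. CDK6 was thus 2.65 times as high as CDK4 in replicate 1 and 2.69 times in replicate 2, and their libraries did not overlap. CDK2, the S phase kinase, had 44.5 and 43.9 FPKM. The mitotic kinase CDK1 had 9.95 and 9.97 FPKM, the lowest level of the cell cycle CDKs. As means these were 55.5 ± 1.10 FPKM for CDK6, 44.2 ± 0.441 for CDK2, 20.8 ± 0.667 for CDK4 and 9.96 ± 0.0153 for CDK1 (SD, n = 2). Each of these kinases was apart from the other cell cycle CDKs in both libraries.

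Of the CDKs outside the cell cycle, the elongation kinases CDK12 and CDK13 were the highest. CDK12 had 28.2 and 34.8 FPKM, and CDK13 had 34.0 and 25.8. CDK12 was the lower of the pair in replicate 1 and the higher in replicate 2, so their order was not resolved. The Mediator kinase CDK8 had 20.2 and 20.5 FPKM, a level that overlapped that of CDK4. The kinases of TFIIH and P-TEFb were far lower. CDK7 had 4.14 and 3.48 FPKM, and CDK9 had 2.49 and 3.14. CDK5 had 0.892 and 0.974 FPKM and was the only 1 of the 10 below FPKM 1. The means were 31.5 ± 4.65 FPKM for CDK12, 29.9 ± 5.77 for CDK13, 20.4 ± 0.169 for CDK8, 3.81 ± 0.466 for CDK7, 2.81 ± 0.460 for CDK9 and 0.933 ± 0.0586 for CDK5 (SD, n = 2).

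By mean FPKM the order was CDK6, CDK2, CDK12, CDK13, CDK4, CDK8, CDK1, CDK7, CDK9 and CDK5. Of the 9 steps between neighbours, 7 separated both libraries of one kinase from both of the next, and the steps from CDK12 to CDK13 and from CDK4 to CDK8 did not. The step from CDK6 to CDK2 was 1.26 times and that from CDK2 to CDK12 was 1.40 times. The widest steps were those from CDK9 to CDK5, at 3.01 times, from CDK1 to CDK7, at 2.62 times, and from CDK8 to CDK1, at 2.05 times. The narrowest step with separate libraries in absolute FPKM was that from CDK7 to CDK9, where the lower library of CDK7 had 3.48 and the higher library of CDK9 had 3.14.

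The cell cycle CDKs had a higher median than the others, but the groups were interleaved. The median was 32.5 FPKM over the 4 cell cycle CDKs and 12.1 over the 6 others, a ratio of 2.69, and the ratio was 2.70 in replicate 1 and 2.68 in replicate 2. Without CDK5, which is not a transcriptional kinase, the median of the 5 transcriptional CDKs was 20.4 FPKM and the ratio was 1.60. Of the 24 pairs of a cell cycle CDK and another CDK, the cell cycle CDK was higher with separate libraries in 18, the other was higher in 5, and 1 pair, CDK4 and CDK8, overlapped. The 5 pairs were CDK12 and CDK13 above both CDK4 and CDK1, and CDK8 above CDK1. The ranges were 9.96 to 55.5 FPKM for cell cycle CDKs and 0.933 to 31.5 for the others, so CDK1 and CDK4 lay inside the range of the other group. Libraries were separate in 43 of all 45 pairs of the 10 CDKs, so separation was the usual outcome whatever the group. The groups hold different genes, set by name, and their difference was not tested.

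The study uses FPKM 30 as the threshold to list potential LRPPRC-bound RNAs, and also measured RIP signal over input and by PCR. At this threshold 3 of the 10 CDKs passed by mean, namely CDK6, CDK2 and CDK12. Among all named genes 8.46% passed, and among those that reached FPKM 1 in each library, as 9 of the CDKs did, 13.6% passed. These shares are set side by side without a test. CDK6 and CDK2 passed in both libraries. CDK13 alone of the CDKs outside the cell cycle passed in replicate 1 and CDK12 alone in replicate 2, so each single library also gave 3. CDK12, at 31.5, and CDK13, at 29.9 FPKM, lay just on each side of the threshold, with SDs larger than their distance from it. Among named genes CDK6 ranked 615, CDK2 852, CDK12 1326, CDK13 1423, CDK4 2115, CDK8 2151 and CDK1 4029, whereas CDK7, CDK9 and CDK5 ranked 7091, 8007 and 10767.

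The cell cycle CDKs had nearly the same level in both libraries, and 3 of the others did not. Over the 10441 genes that reached FPKM 1 in each library, Pearson's r of log2(FPKM + 1) was 0.995 across genes, the median absolute log2 ratio was 0.07, and 8.42% differed by more than 1.2 times. None of the 4 cell cycle CDKs differed by that much, and their larger library was at most 1.05 times the smaller. Of the 6 others, CDK13 differed by 1.32 times, CDK9 by 1.26 times and CDK12 by 1.23 times, and CDK7, at 1.19 times, was just under. The log2 ratio of replicate 2 to replicate 1 was -0.40 for CDK13 and 0.30 for CDK12, in opposite directions. At a mean of 20 to 60 FPKM, where both lie, 3.48% of named genes differed by more than 1.2 times. Below a mean of 5 FPKM, where CDK9 and CDK7 lie, 13.6% did. The sum of CDK12 and CDK13 was 62.2 FPKM in replicate 1 and 60.6 in replicate 2. Why the 2 genes differed in opposite directions was not tested.

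**Figure D2:**
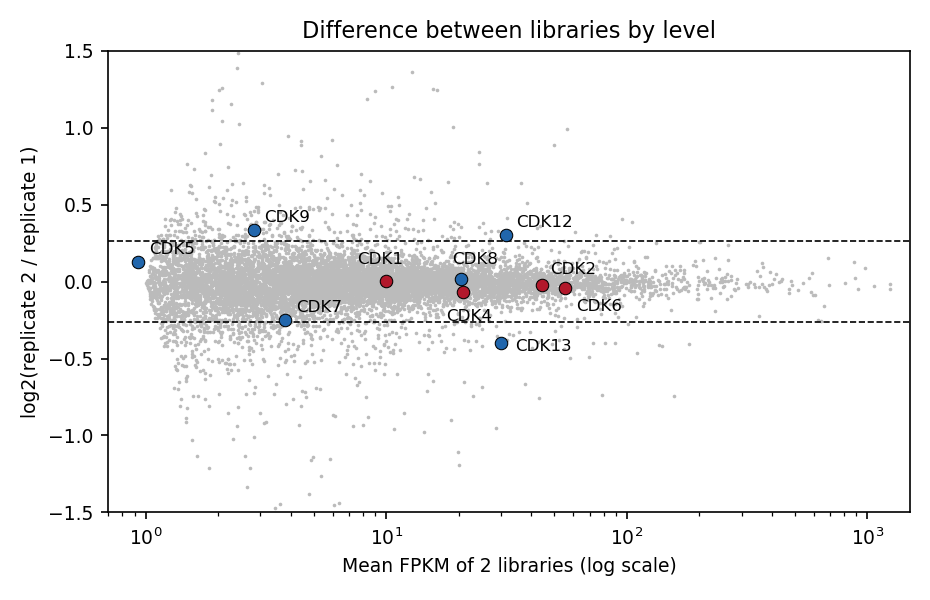
log2 of the FPKM in replicate 2 over that in replicate 1 (y axis) against the mean FPKM on a log scale (x axis). Gray points are named genes that reached FPKM 1 in each library (12 lie beyond the axis limit of 1.5), red points are cell cycle CDKs, blue points the other CDKs, and dashed lines mark a difference of 1.2 times, which CDK12 and CDK13 cross in opposite directions.

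CDK12 and CDK13 encode related proteins. The longest run of bases that the canonical transcripts of the pair share exactly was 25, which was also the longest among all 45 pairs of the 10 CDKs. Over the aligned part of the proteins, translated from the reference coding sequences, CDK12 and CDK13 were identical at 55.1% of 1258 residues. CDK4 and CDK6 were identical at 72.1% of 290 residues, the closest pair, and CDK1 and CDK2 at 67.1% of 292. CDK5 was closest to CDK2, at 60.7% of 290 residues, and to CDK1, at 58.0% of 286, although its mRNA level was far from theirs. Its identity to CDK7, CDK8, CDK9, CDK12 and CDK13 was between 42.9% and 46.3%.

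For 4 of the CDKs, copies of the coding sequence were found elsewhere in the genome. Whether reads of these copies entered the levels was not measured. CDK7 has a processed pseudogene, CDK7P1, with 95.8% identity over a stretch equal to 93.9% of its coding length, so the split of its reads is uncertain. CDK5P1 had 92.6% identity over a stretch equal to 99.8% of the CDK5 coding length, CDK8P2 had 90.8% over 60.2% for CDK8, and CDK4P1 had 83.0% over 60.7% for CDK4. With limits of 80% identity and 50% of the coding length, no copy was found for the other 6 CDKs, among them CDK6, CDK2 and CDK1. Genes on the opposite strand shared exonic bases with 3 of the CDKs. TSPAN31 shared 1078 of the 1865 bases of the CDK4 transcript and had 2.40 FPKM against 20.8 for CDK4, CDK2 shared 89 bases with PMEL, at 0.0766 FPKM, and 287 with an unnamed long noncoding RNA, and CDK6 shared 86 of its 11663 bases with CDK6-AS1, and neither noncoding RNA has a value here. The kit marks strand, but no source used here says whether quantification took it into account, so reads of such partners may be mixed.

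The 3 longest transcripts were among the 4 highest by FPKM. CDK6 (ENSG00000105810, chromosome 7, 92604921 to 92836573, minus strand) has a canonical transcript of 11663 bases in 8 exons, with a 5′ UTR of 463 bases, a coding sequence of 981 and a 3′ UTR of 10219, which makes up 87.6% of it. Only 2.52% of the 9786 genes with FPKM of at least 1 and a matched coding transcript had a longer one, and their median was 3592 bases. CDK13 (chromosome 7, 39950121 to 40099580, plus strand) has 9525 bases and CDK12 (chromosome 17, 39461486 to 39567559, plus strand) 8287, but with coding sequences of 4539 and 4473 bases, since both kinases carry long extensions beyond the kinase domain. CDK2 (chromosome 12, 55966781 to 55972789, plus strand) had the next highest FPKM after CDK6 with only 2240 bases. CDK4 (chromosome 12, 57747727 to 57756013, minus strand), with 1865 bases, and CDK1 (chromosome 10, 60778331 to 60794852, plus strand), with 1889, are short, with 3′ UTRs of 798 and 877 bases.

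The lower 3 kinases have the shortest 3′ UTRs with 1 exception. The 3′ UTR has 194 bases in CDK5 (chromosome 7, 151053815 to 151057897, minus strand) and 295 in CDK7 (chromosome 5, 69234795 to 69277430, plus strand), but 1249 in CDK9 (chromosome 9, 127785679 to 127790792, plus strand), longer than that of CDK2, at 1164. CDK8 (chromosome 13, 26254104 to 26420982, plus strand) has 1157. Over the 10 CDKs, the Spearman correlation of FPKM was 0.70 with transcript length and 0.71 with 3′ UTR length, against 0.12 and 0.05 over the genes with FPKM of at least 1. The points share both libraries and one annotation, and the correlation is a description of 10 genes.

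Since FPKM divides by length, its product with the length in kb approximates the share of fragments a transcript took up. The product was 647 for CDK6, 285 for CDK13, 261 for CDK12, 99.0 for CDK2, 62.4 for CDK8, 38.8 for CDK4, 18.8 for CDK1, 6.98 for CDK9, 5.43 for CDK7 and 1.05 for CDK5. On this scale CDK2 stood below CDK13 and CDK12, and CDK8 above CDK4. CDK6 was first and CDK5 last on both scales. The lengths are those of 1 canonical transcript per gene in GENCODE 44, not the lengths used upstream.

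AU-rich elements are short motifs in 3′ UTRs through which many unstable mRNAs are recognised. They were counted because the paper describes LRPPRC as acting mainly on the stability of the RNAs it binds. A link between LRPPRC and these elements was not tested. The nonamer TTATTTATT was found on the sense strand in the 3′ UTR of CDK6 alone among the 10, once. That is 1 of 10, the same share as the 10% of the 9769 genes that reached FPKM 1 and have a 3′ UTR. The 3′ UTR of CDK6, with 10219 bases, is the longest of the 10, and the median over the 9786 genes with a matched coding transcript was 1450.5. The surroundings of the nonamer in CDK6 (chr7:92607652-92607680, minus strand) are given with the nonamer in capitals.
CDK6 3′ UTR: ttcatgtatgTTATTTATTtctgaatcac

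The shorter core ATTTA, which the nonamer contains, was present in 9 of the 10 3′ UTRs and in 76.3% of genes. CDK6 held 26 copies, CDK13 15 and CDK12 8, and CDK4 held none. Per kb of 3′ UTR the count was 10.3 in CDK5, 5.70 in CDK1 and 3.39 in CDK7. It was lower in CDK13, at 3.26, CDK6, at 2.54, and CDK12, at 2.48. The median over genes that reached FPKM 1 and have a 3′ UTR was 1.85, and CDK2, CDK9, CDK8 and CDK4 lay below it. The count in CDK5 is 2 copies in 194 bases. A motif match is a description of the reference sequence and does not show that any factor acts there.

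Partners of the cell cycle CDKs ranged from 0.262 to 370.4 FPKM in the same precipitate. Of 10 such genes, 6 had a mean above 30 FPKM, against 8.46% of named genes. Among genes that reached FPKM 1 in each library, as 9 of the 10 did, the share was 13.6%. The median of the 10 was 40.9, against 2.48 over named genes and 6.81 over those that reached FPKM 1. CCND2 and CCNE1 lay below the median of 6.81 over genes that reached FPKM 1. CCNB1, the mitotic cyclin B1, had 234 and 248 FPKM, 24.2 times the level of its kinase CDK1, and CCNB2 had 44.5 and 43.5. The CDK-binding subunits CKS1B, with 375 and 366, and CKS2, with 203 and 206 FPKM, were also far above every CDK. CCND1, a cyclin of CDK4 and CDK6, had 47.6 and 48.6 FPKM, 2.31 times CDK4 and 0.867 times CDK6. CCND3 had 25.9 and 21.4, and CCND2 only 0.268 and 0.257. For CDK2, CCNE2 had 36.7 and 38.8 FPKM and CCNA2 17.3 and 16.5, whereas CCNE1 had 3.61 and 3.64.

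Of 12 partners of the other CDKs, 1 had a mean above 30 FPKM, a share near the 8.46% of named genes. Their median was 7.14, against 2.48 over named genes and 6.81 over genes that reached FPKM 1 in each library, as 10 of the 12 did. That gene was MED13, which ties the CDK8 module to Mediator, with 61.2 and 60.9 FPKM, 3.03 times CDK8 in replicate 1 and 2.97 times in replicate 2. The other module members stayed nearer to their kinase. MED12 had 29.5 and 29.3 FPKM and CCNC, cyclin C, 24.4 and 26.4. CCNK, the cyclin of CDK12 and CDK13, had 22.7 and 24.5 FPKM, below both kinases in both libraries.

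Low kinases did not all have low partners. For CDK9, CCNT2 had 22.1 and 22.2 FPKM, 7.88 times the kinase, and CCNT1 had 5.92 and 5.73. The CDK9 inhibitor HEXIM1 had 5.91 and 5.95, and LARP7, which holds the 7SK complex that sequesters P-TEFb, had 6.44 and 6.46. CDK7 had 2 partners on either side of it, CCNH with 7.07 and 8.58 FPKM and MNAT1 with 2.18 and 1.99. The CDK5 activators CDK5R1 and CDK5R2 were below FPKM 1 in both libraries, like CDK5 itself.

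**Figure D3:**
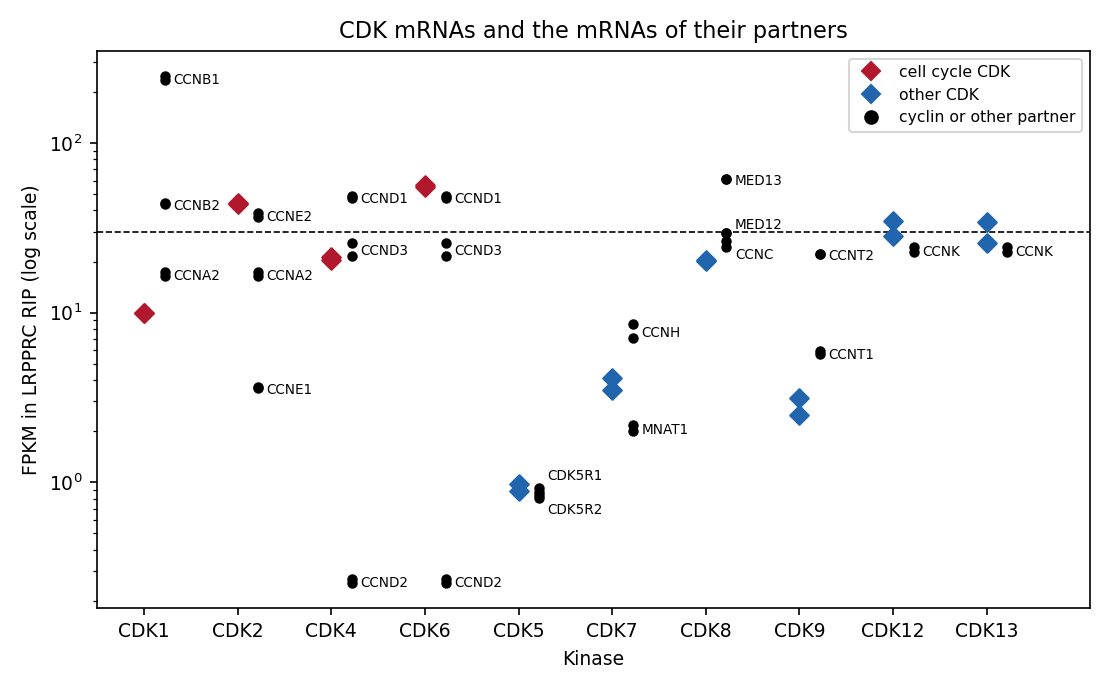
FPKM in LRPPRC RIP on a log scale (y axis) for each CDK (x axis, diamonds, cell cycle in red and others in blue) and for its cyclins or other partners (black points), with 1 symbol for each of the 2 libraries and a dashed line at FPKM 30. CCNB1 lies far above CDK1, CCND1 lies between CDK4 and CDK6, and CCNT2 lies above CDK9.

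The rest of the CDK family shows that a higher level than that of CDK6 occurred within it. Of 11 further CDKs, 1 had a mean above 30 FPKM, a share near the 8.46% of named genes, and the median of 2.28 was near the 2.48 over named genes. CDK16, a kinase activated by cyclin Y, had 107 and 102 FPKM, above all 10 CDKs described here. CDK19, the close relative of CDK8, had 11.7 and 11.3 FPKM, 0.564 times CDK8. CDK14 had 6.39 and 6.01, and CDK17 had 5.15 and 4.23. CDK11A, with 1.78 and 2.05, and CDK11B, with 4.91 and 4.86 FPKM, are near-identical genes whose reads may have been split, so their levels are uncertain. CDK3, CDK10, CDK15, CDK18 and CDK20 were between 0.107 and 2.28 FPKM by mean.

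Substrates and chaperones of these kinases were measured beside them. Of 6 substrates, 1 was above 30 FPKM, a share near the 13.6% of genes that reached FPKM 1 in each library. This was POLR2A, the largest subunit of RNA polymerase II and the target of CDK7, CDK9, CDK12 and CDK13, with 107.8 and 109.8 FPKM. The elongation factor subunits SUPT5H and NELFE, substrates of CDK9, had means of 14.3 and 5.70. The pocket proteins that cell cycle CDKs phosphorylate had means of 23.2 FPKM for RBL1, 16.5 for RB1 and 10.8 for RBL2, and their libraries did not overlap. CDC37, which hands kinases such as CDK4 to HSP90, had 575 and 599 FPKM, and the HSP90 genes HSP90AA1 and HSP90AB1 had means of 881 and 974, although both have related copies and their split is uncertain.

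The label of an epithelial cell was checked against 6 markers, of which KRT8, KRT18 and KRT7 were above 30 FPKM, with means of 337, 51.1 and 30.5. Among named genes 8.46% had a mean above 30. KRT19 had 12.1, CDH1 1.33 and EPCAM 0.430. Of 6 markers of other lineages, 4 had a row, each below 1 FPKM, and they summed to 0.991 FPKM in replicate 1 and 0.981 in replicate 2. The fibroblast marker COL1A1, with a mean of 0.696, lay above EPCAM, and the rest lay below it. Of the 16770 named genes, 10441 reached FPKM 1 in each library. No value was used for PTPRC and CD3E. FPKM summed over all genes to 196627 in replicate 1 and 194839 in replicate 2. The sequencing depth is unknown, so for low values such as those of CDK5 the spread of the 2 libraries is the only measure of precision.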

How the data were processed

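RNA from 2 LRPPRC RIP libraries of A549 cells was used. Libraries were made with a stranded total RNA kit from 250 pg to 10 ng of RNA per the labels. As the paper's methods and the labels state, the authors trimmed reads with cutadapt 1.18, aligned them to GRCh38 with HISAT2 2.1.0, sorted them with SAMtools and quantified them with StringTie 1.3.3b against Ensembl release 101. The authors deposited FPKM for each gene and library, without pooling, in 21262 rows, of which 4460 were genes added by assembly. Where a name repeated (32 rows), the row with the higher mean was kept. Steps that whole reads would leave in low values were searched for. Of 5405 genes below a mean of 0.3 FPKM, at most 1.41% shared a log2 ratio within 0.02, so no reads were recovered.

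Means, SDs, medians, ranks, counts above FPKM 30 and differences over 1.2 times were computed. The members, gene lists and thresholds were chosen with earlier results of these data known. Genes named are the 10 CDKs and genes of those lists. The overlapping genes and pseudogenes were named after the search for them. Transcript lengths and sequences are those of Ensembl canonical transcripts in GENCODE 44 on GRCh38, matched for 93.7% of genes with FPKM of at least 1. Lists of primers came from the study's supplementary data, sequences only. Coding sequences were searched against GRCh38 with blastn 2.17.0, and proteins were aligned locally with Biopython 1.88. The summary functions were tested on simulated data. Python 3.11.15, numpy 2.4.6, pandas 2.3.3 and matplotlib 3.10.9 were used. As alternatives, the threshold was set to 20 or 50 FPKM or applied in both libraries, and the summaries were repeated with each library alone, leaving out CDK5, log2 means with pseudocounts of 1 and 0.1, TPM, FPKM times length, another background and the longest coding transcript.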

Additional observations from a re-analysis of the deposited data

How the results depend on the processing

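The number of the 10 CDKs above the threshold was 6 at FPKM 20, against 21.1% of genes with FPKM of at least 1, and 1, CDK6, at FPKM 50, against 6.89%, because the threshold itself differs. It was 2 with the threshold in both libraries and 3 with either library alone. The ratio of the median of the cell cycle CDKs to that of the others was 2.68 to 2.70 with a single library and 2.69 as TPM. It was 1.60 without CDK5, because CDK5 is the lowest value of its group, and 1.99 for FPKM times length. From means of log2 values with a pseudocount of 1 or 0.1 it was 2.93 or 3.43. In each of these settings it stayed above 1, but leaving out CDK5 was not combined with another setting. With a single library 2 of the 10 CDKs changed place in the order, CDK12 and CDK13 in replicate 1 and CDK4 and CDK8 in replicate 2. With FPKM times length 6 did. The longest coding transcript differed from the canonical one only for CDK1 and CDK7, so the other products could not change. The CDK1 product went from 18.8 to 19.4, by more than the spread between its libraries. The CDK7 product went from 5.43 to 5.54, by less than that spread. No paired analysis was possible because both libraries belong to 1 group. With 2 libraries of unknown depth, a difference between CDKs was judged only by whether their libraries overlapped.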

Other observations

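The INK4 proteins bind CDK4 and CDK6 and block their pairing with D-type cyclins. Of the 4 INK4 genes, none had a mean above 30 FPKM in LRPPRC RIP, where 8.46% of named genes did, so a count of 0 among 4 genes is near the background. Their median was 2.83, near the 2.48 over named genes. CDKN2B had 9.32 FPKM in replicate 1 and 9.18 in replicate 2, CDKN2C had 1.99 and 2.30, and CDKN2D had 0.524 and 0.693. CDKN2A had 3.71 and 3.31 FPKM, although the A549 line is known for a homozygous deletion of this gene. The level listed for CDKN2A was above that of CDK9 in both libraries, and its libraries overlapped with those of CDK7, at 4.14 and 3.48 FPKM. What the value of CDKN2A consists of was not tested.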
